A study of Homo sapiens with 30 samples.

Results

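YK-4-279 is a small molecule that was made to block ETS-family transcription factors, and it exists as 2 mirror-image forms, YK-S and YK-R, that differ in the arrangement of groups around a single carbon. The comparison described here sets the forms against each other in U2932 cells after 4 h, and uses 3 arrays from cells given YK-S and 3 from cells given YK-R. These 6 arrays, of 30 in the series, were chosen by their labels in the deposited table of log2 values. U2932 is an established human line of diffuse large B cell lymphoma of the activated B cell-like type. The labels give for each array the cell line, the compound and the time, and name no other treatment or genetic change. A further 3 U2932 arrays, from cells given the solvent DMSO for 4 h, show where each form lay beside the solvent. The labels give no dose, and nothing in them states that replicate arrays stem from different cultures. The p-values therefore measure the spread between arrays, which may be technical.

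ETS factors share a DNA-binding domain that recognises a GGAA core. SPIB and SPI1 belong to this family, are found in B cells, and bind composite sites together with IRF4, a factor on which activated B cell-like lymphoma depends. YK-4-279 was first described as a compound that keeps the fusion protein EWSR1-FLI1 from binding the RNA helicase DHX9, with the S form as the active one. The comparison therefore asked which transcripts the forms move differently.

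No transcript passed the test. Of 23814 features, meaning genes or unnamed probes that lay above background on at least 3 of the 18 U2932 arrays, 0 were called at an adjusted p under 0.05 (0% called, limma with Benjamini-Hochberg adjustment), and the smallest adjusted p was 0.447. At an unadjusted p under 0.05 there were 2596 features, 10.9% of all, of which 1233 were higher with YK-S (5.18%) and 1363 lower (5.72%), where chance alone gives 1190.7. The 3 YK-S arrays all lay above the 3 YK-R arrays for 1183 features (4.97%) and all below them for 1134 (4.76%). Over all features the median difference, YK-S minus YK-R, was −0.0056 on the log2 scale, and 48.7% of the features had a difference above 0.

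The arrays limited how small a difference could be seen. On median, the 95% interval ended 0.244 log2 from the difference on each side. Its spread was pooled over the 6 groups of U2932 arrays, at 4 h and 8 h. Fitted with the 6 compared arrays alone, it ended 0.314 log2 away on median. That fit had 407 features at an unadjusted p under 0.05 by limma, against 2596 in the pooled fit. The number given by chance is 1190.7 in both, so the excess was not seen with the 6 arrays alone. The pooled fit takes 1 spread for all groups. Array weights, lower for noisier arrays, were 0.072 to 0.388 for YK-R at 4 h and 2.63 to 2.85 for DMSO at 8 h. The pooled interval lay wholly within 1 log2 unit of 0 for 22957 features (96.4%) and within 0.5 units for 16447 (69.1%). Among the 9446 features above background on all 6 arrays these shares were 93.4% and 47.7%. For most well measured transcripts a difference of 1 log2 unit between the forms thus lay outside the pooled interval. For most of them one of 0.5 units in at least one direction did not.

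One array, YK-R replicate 2, stood apart from the rest. It correlated with the other 5 arrays at r = 0.907 to 0.926 over the features, whereas the 10 pairs among those 5 lay between 0.986 and 0.996. Its median absolute distance from the mean of the others was 0.237 log2, against 0.087 to 0.132 for the other arrays measured the same way. It differed from that mean by more than 1 log2 unit at 1936 features (8.13%), and the other arrays did so at 1 to 4 features each.

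**Figure D1:**
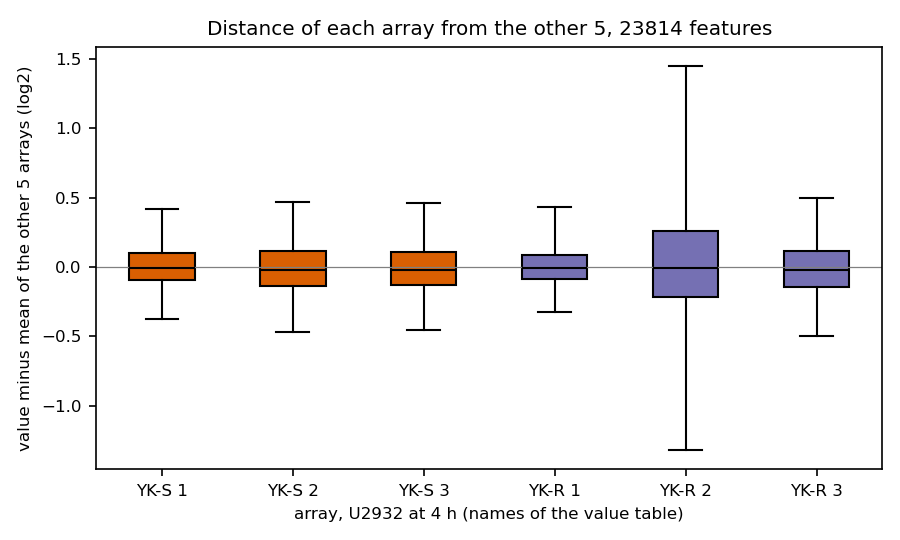
Distance of each of the 6 U2932 arrays at 4 h from the mean of the other 5, over 23814 features, in log2 units, with boxes at the quartiles and whiskers at the 1st and 99th percentiles. YK-R replicate 2 has the widest spread, with 1936 features more than 1 unit away against 1 to 4 for each other array.

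Short structural RNAs were among the features furthest above the rest on YK-R replicate 2. The genes in this account of the array were chosen after their values were seen. All 4 measured Y RNAs lay above the mean of the other 5 arrays, by a median of 1.64 log2, and so did the 3 ribosomal RNAs by 2.04 and 13 of 14 snRNA entries by a median of 0.97. SNAR-A1, a small NF90-associated RNA, was at 12.03 on this array and at 8.84 to 9.92 on the other 5. RNU4-2, the U4 spliceosomal RNA, was at 9.76 against 7.0 to 7.94, and 18S ribosomal RNA (RNA18SN5) was at 9.72 against 6.74 to 7.37. The 202 snoRNAs as a group showed no such shift (median −0.069), nor did the 12850 protein-coding genes (median −0.047). Of the snoRNAs, 8 lay more than 1 log2 unit above the mean of the other 5 arrays and 2 more than 1 below. SNORD13 was at 10.63 against 7.85 to 8.82. Single protein-coding genes nevertheless lay far off in both directions.

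SF3A2, a splicing factor of the U2 particle, was at 11.24 on this array and at 8.44 to 8.91 elsewhere, and the tubulin gene TUBB3 was at 10.72 against 8.32 to 8.70. PTMA, which encodes prothymosin alpha, was at 6.95 against 9.11 to 9.70, and the nuclear import factor KPNA2 was at 7.0 against 8.65 to 9.18. Per the labels, RNA was used at an integrity number above a stated minimum. The integrity of single arrays' RNA was not analysed here, and whether RNA quality moved with this array was not tested. The mean signal of the array, 102.7 intensity units, was like that of 3 other arrays of the comparison.

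Without YK-R replicate 2 the differences shrank. The standard deviation of the 23814 differences was 0.213 log2 with all 6 arrays and 0.113 without this one, and the number of features past 1 log2 unit went from 13 to 1, an unnamed probe. The count at an unadjusted p under 0.05 went from 2596 to 962, below the 1190.7 of chance, and 0 features were called. Leaving out YK-R replicate 1 instead gave 124 called features (0.521%), 40 higher and 84 lower with YK-S, and YK-R replicate 2 was the highest or lowest of the 6 arrays for 105 of them. All 124 had the same sign when replicate 2 was left out in place of replicate 1. Both fits hold the same YK-S arrays and YK-R replicate 3, so this agreement is largely fixed in advance and is no independent support. The median absolute difference of the 124 was then 0.257 log2 and not 0.544. Leaving out any of the other 4 arrays gave 0 called features.

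**Figure D2:**
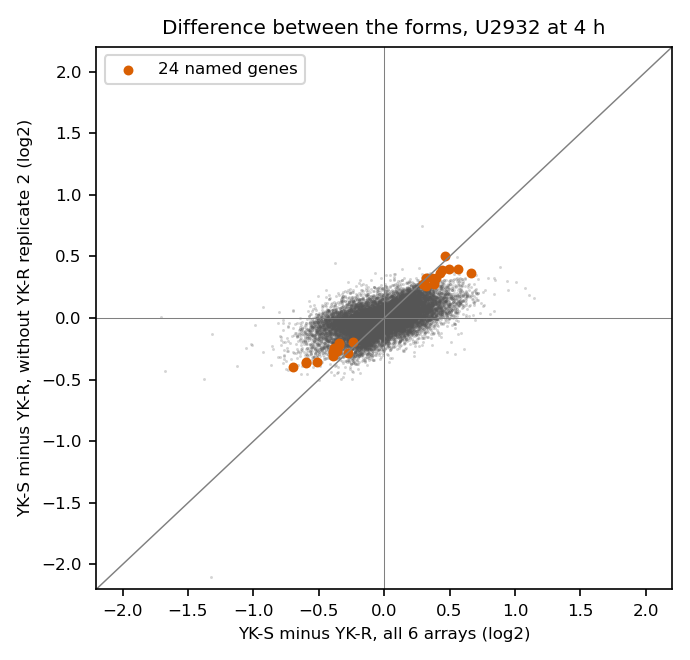
Log2 difference, YK-S minus YK-R in U2932 at 4 h, of 23814 features with all 6 arrays (horizontal) and without YK-R replicate 2 (vertical), with the line of equality and the 24 named genes in orange. The cloud is flatter than the line, with a standard deviation of 0.113 on the vertical axis against 0.213 on the horizontal one.

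The arrays also differed in brightness, taken as the mean signal, and by that measure in the same way in both groups. YK-S replicate 1 had a mean signal of 325.8 units and YK-R replicate 1 one of 253.9, while the other 2 arrays of each group lay between 98.8 and 104.1. YK-S replicate 1 and YK-R replicate 1 were the most alike of the 15 pairs (r = 0.996), although they carry different compounds. Between these 2 bright arrays, with the spread taken from all bright U2932 arrays, 0 features were called and 1114 had an unadjusted p under 0.05. Between the dim arrays 0 were called and 770 had an unadjusted p under 0.05.

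B cell markers were present on all 6 arrays. Of 7 B cell marker genes on the array, 6 lay above background on each array, led by CD79B, a chain of the B cell receptor complex, at 12.21 to 12.50. PAX5, a B cell identity factor, was the marker that did not exceed the background limit on any of them. Of 11 T and NK cell markers 1 to 4 were above background, none over 6.73, and CD3D, CD3E and CD3G did not pass the filter. Of 10 myeloid markers 2 to 5 were above background, with a highest value of 7.10, for CD14. Of 12 stromal and epithelial markers 1 to 8 were above background, led by EPCAM, an epithelial adhesion molecule, at 8.90, 8.23 and 9.26 with YK-R and 9.14, 9.23 and 9.20 with YK-S. The summed B cell level above background was 7973 to 8602 units with YK-S and 8784 to 12214 with YK-R, the summed T and NK cell level 15.5 to 44.0 and 31.7 to 75.5, the myeloid one 56.6 to 89.5 and 74.3 to 162, and the stromal one 542.5 to 600.9 and 225 to 602.5. The highest B cell, T and NK cell and myeloid sums and the lowest stromal sum were those of YK-R replicate 2. Their part in the differences below was not tested.

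Since no gene was called, the genes described next are the 12 in each direction with the smallest unadjusted p among named genes whose groups did not overlap. Their differences ranged from 0.24 to 0.70 log2 in size and their unadjusted p from 0.00026 to 0.0022, and all 24 had an adjusted p of 0.447. They were selected for non-overlap, so that feature of them is no result. APPL2 at 0.33 and IGFBP6 at −0.27 were the next genes outside the selection.

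Among the genes higher with YK-S, 3 encode membrane or membrane-traffic proteins. GOLM1, a Golgi membrane protein, was at 6.87, 7.10 and 6.94 with YK-S and at 6.69, 6.42 and 6.48 with YK-R, a difference of 0.44 log2 (95% interval 0.24 to 0.64). STX7, an endosomal syntaxin that works in vesicle fusion, was at 7.10, 7.40 and 7.16 against 6.82, 6.31 and 6.83, a difference of 0.57 (0.26 to 0.87). The other STX7 probe gave −0.016. IL27RA, the specific chain of the interleukin 27 receptor, was at 6.59, 6.77 and 6.87 against 6.49, 6.42 and 6.36, a difference of 0.32 (0.15 to 0.49). For the first pair YK-R replicate 2 was the lowest array, and for IL27RA it was YK-R replicate 3.

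Cytoskeletal and chromosomal genes were also in this direction. TPM1, a tropomyosin that runs along actin filaments, was at 6.67, 6.93 and 6.90 with YK-S, while it did not exceed the background limit of 6.45 on any of the 3 YK-R arrays (6.45, 6.44 and 6.21). Against that limit it was at least 1.31-fold higher with YK-S, with measured means of 6.83 ± 0.15 and 6.37 ± 0.13 (SD, n = 3 each) and a fitted difference of 0.46. FAM83D, a protein of the mitotic spindle, had the largest difference of the 12, 0.66 (0.29 to 1.04), from 7.56, 8.02 and 7.79 against 7.48, 6.54 and 7.37. Without YK-R replicate 2, at 6.54 the lowest array, the difference of FAM83D was 0.37. H3C10, one of many near-identical replication-dependent histone H3 genes, was at 6.78, 6.84 and 6.87 against 6.67, 6.38 and 6.47, and its probe may read other copies.

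A pair of regulatory subunits of protein phosphatase 2A lay on opposite sides. PPP2R5C, the gamma member of the B56 subunits, was at 6.81, 7.08 and 7.06 with YK-S and at 6.68, 6.29 and 6.49 with YK-R, a difference of 0.50 (0.25 to 0.74). PPP2R5B, the beta member, was at 6.46, 6.28 and 6.27 against 6.61, 7.41 and 6.79, a difference of −0.60 (−0.91 to −0.29). The 2 other probes of PPP2R5C gave −0.04 and 0.06, so the difference was seen with 1 of its 3 probes.

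The remaining genes higher with YK-S were transcription factor genes and genes of varied function, and they differed by 0.30 to 0.43. ATOH7, a factor best known from the retina, was at 6.58, 6.79 and 6.71 against 6.47, 6.35 and 6.35, and the zinc finger gene ZNF18 was at 6.90, 7.08 and 6.84 against 6.71, 6.40 and 6.44. ZNF804A, another zinc finger gene, differed by 0.37 and HABP4, an RNA-binding protein gene, by 0.38. PI4KAP1, a pseudogene copy of the lipid kinase gene PI4KA, differed by 0.40, and its probe may read related copies. ZNF804A and FAM83D were above background on all 3 YK-R arrays, and the other genes of this direction were not.

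Most of the 12 genes lower with YK-S lay near background with that form: in 4 no YK-S array exceeded the limit, in USP6NL all 3 did, and in the others 1 did. CELF6, a splicing regulator, was at 6.52, 6.37 and 6.33 with YK-S against 6.66, 7.71 and 6.94 with YK-R, a difference of −0.70 (−1.08 to −0.32), or −0.39 without YK-R replicate 2. ZNF385D, a zinc finger gene, was at 6.46, 6.33 and 6.41 against 6.58, 7.48 and 6.92, a difference of −0.60 (−0.93 to −0.27). TMEM202, a transmembrane protein gene, was at 6.49, 6.34 and 6.34 against 6.58, 7.21 and 6.91, a difference of −0.51. In each of these 3 genes YK-R replicate 2 was the highest array and YK-R replicate 1 was the YK-R array nearest to those with YK-S. Since 2 of the 3 YK-S arrays lay below the background limit in these genes and in PPP2R5B, the sizes of their differences rest in part on values not separated from background.

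For 4 of the 12 no YK-S array exceeded the background limit, and folds are bounds against it. FABP7, a fatty acid binding protein best known from brain, was at least 1.24-fold higher with YK-R (means 6.36 ± 0.07 with YK-S and 6.75 ± 0.21 with YK-R). UBXN10, whose protein carries a UBX domain, was at least 1.21-fold higher (6.34 ± 0.10 and 6.72 ± 0.24), and the olfactory receptor gene OR2A25 at least 1.20-fold (6.36 ± 0.08 and 6.71 ± 0.22). SLC35G5, a member of a family of close copies in the SLC35 transporter group, was at least 1.14-fold higher (6.39 ± 0.07 and 6.63 ± 0.08). PWWP2B, a gene of a PWWP domain protein, differed by −0.34, POFUT4, a protein O-fucosyltransferase gene, by −0.36, and TMED8, a gene of a transport-protein family, by −0.27. The other PWWP2B probe gave 0.035.

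USP6NL, which encodes a GTPase-activating protein for RAB5, was the one gene of these 12 above background on all 6 arrays. It was at 7.98, 7.73 and 7.83 with YK-S and at 8.20, 8.46 and 8.04 with YK-R, a difference of −0.39 (−0.61 to −0.16). The 3 DMSO arrays lay at 7.78, 7.96 and 7.76, next to those with YK-S. Without YK-R replicate 2 the difference was −0.28.

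**Figure D3:**
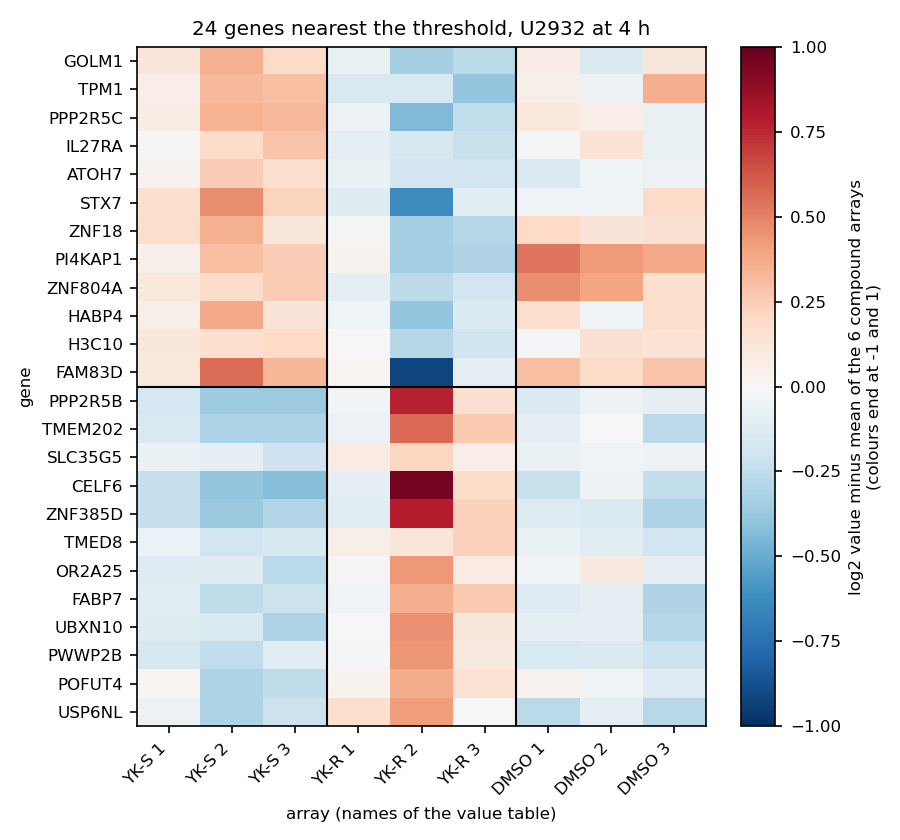
Heat map of the 24 named genes (vertical) on the 3 YK-S, 3 YK-R and 3 DMSO arrays of U2932 at 4 h (horizontal); the colour gives the log2 value minus the gene's mean over the 6 arrays with a compound, and ends at −1 and 1. YK-R replicate 2 has the strongest colours among the YK-R arrays in 21 of 24 genes. The DMSO arrays mostly lie between the forms, a position that the selection of the genes favours.

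Over the 24 genes, YK-R replicate 2 was the extreme array of its group in 21. All 24 kept their sign without it, which their selection for non-overlap fixes in advance. The median ratio of the difference without that array to that with it was 0.765. The mean of the 3 DMSO arrays lay between those of the forms in 21 genes, and outside them in PI4KAP1, ZNF804A and USP6NL. Selection for a gap between the forms favours this position, so the count does not show that the forms moved genes in opposite directions. In PI4KAP1 the DMSO mean was 7.21, above both forms, with differences from DMSO of −0.25 for YK-S and −0.65 for YK-R. These 2 differences share the DMSO arrays. At 8 h 14 of the 24 had the same sign, and in TMD8 cells at 4 h, another line of the same lymphoma type, 12 of 24 did. Another probe existed for 5 genes, and in 4 of them, TPM1, PPP2R5C, STX7 and PWWP2B, a probe gave the opposite sign.

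The direction of these differences depended on which table's array names were used. The deposited table of signals names the same 18 U2932 arrays differently: matched by their values, with rank correlations of at least 0.999996, 0 of 18 carried the same name in both tables and 5 of 18 the same group, whereas all 12 TMD8 arrays carried the same name. The arrays called YK-S at 4 h in the signal table are YK-R replicate 3, DMSO replicate 1 and YK-S replicate 1 of the value table. Those called YK-R at 4 h are DMSO replicate 3, YK-S replicate 2 and YK-S replicate 3. Thus 2 of the YK-S arrays become YK-R, 1 YK-R array becomes YK-S, and YK-R replicates 1 and 2 leave the comparison. Under those names the YK-R arrays had mean signals of 110, 104 and 103 units, and the YK-S arrays 98.8, 305 and 326. Brightness by mean signal was thus not balanced between the groups there, whereas it was in the main comparison. Its part in the results with those names was not tested.

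With the signal table's names and its signals, 0 of 23814 features were called, 1176 had an unadjusted p under 0.05, and the smallest adjusted p was 0.34. The absence of calls thus held in both tables. The named genes did not: 24 of 24 had the opposite sign there, for example TPM1 at −1.0, GOLM1 at −0.60 and CELF6 at 0.71. An opposite sign is nearly fixed by the exchange of arrays and is no independent evidence about the genes. Which set of names is right could not be told from the labels.

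TPM1 was the one named gene whose promoter held the ETS motif searched for, and its sequence is shown since the compound was made against ETS factors. The motif CCGGAAGT, on either strand, occurred in 995 of 27305 promoters of 250 bases in RefSeq (3.644%) and in 1 of the 20 named genes with a promoter there. The ETS-IRF composite, GGAA and GAAA with any 2 bases between them, occurred in 665 promoters (2.435%) and in 0 of the 20. The TPM1 promoter is the 250 bases before the gene's start on chr15:63048239-63048488 (GRCh38.p14, plus strand), with the motif on the minus strand in capitals, 69 bases from the start.
TPM1: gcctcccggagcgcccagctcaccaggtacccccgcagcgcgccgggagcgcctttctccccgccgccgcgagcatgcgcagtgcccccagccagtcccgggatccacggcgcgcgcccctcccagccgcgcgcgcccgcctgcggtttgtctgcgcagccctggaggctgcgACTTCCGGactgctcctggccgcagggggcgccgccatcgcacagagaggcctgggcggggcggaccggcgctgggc
The match describes letters and not binding. The probe of TPM1 that gave 0.46 was the brightest of 3, and the others gave −0.15 and 0.08.

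The transcript levels of SPIB, SPI1 and IRF4 did not separate the forms, and the activity of their proteins was not measured. SPIB, the ETS factor of B cells, was at 7.55, 8.07 and 7.88 with YK-S and at 7.60, 8.49 and 7.86 with YK-R, so the groups overlapped. The difference was −0.15 log2 (95% interval −0.88 to 0.58, adjusted p = 0.843 by limma), it was 0.10 without YK-R replicate 2, and the DMSO mean was 8.15 ± 0.24 (SD, n = 3). SPI1, its close relative, was at 6.73, 6.54 and 6.64 against 6.66, 6.77 and 6.57, a difference of −0.03 (−0.31 to 0.26). The other SPI1 probe gave −0.37 (unadjusted p = 0.11), outside the interval of the first. IRF4 was at 8.64, 9.15 and 8.91 against 8.68, 8.82 and 8.99, a difference of 0.07 (−0.47 to 0.60). A difference of 1 log2 unit between the forms lay outside all 3 intervals, which are those of the brightest probe of each gene, and one of 0.5 units lay inside those of SPIB and IRF4. The intervals do not show that the forms act alike on any of the 3 genes.

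MYC, a growth-promoting transcription factor, was at 8.52, 8.37 and 8.17 with YK-S and at 8.36, 8.00 and 8.29 with YK-R, a difference of 0.14 (−0.16 to 0.43). The other MYC probe gave 0.31. DHX9 was at 8.17, 8.40 and 8.30 with YK-S and at 8.17, 6.64 and 8.39 with YK-R. Its difference of 0.56 (−0.10 to 1.22, adjusted p = 0.451 by limma) was 0.01 without YK-R replicate 2, and its other 3 probes gave 0.05, −0.01 and −0.06.

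**Figure D4:**
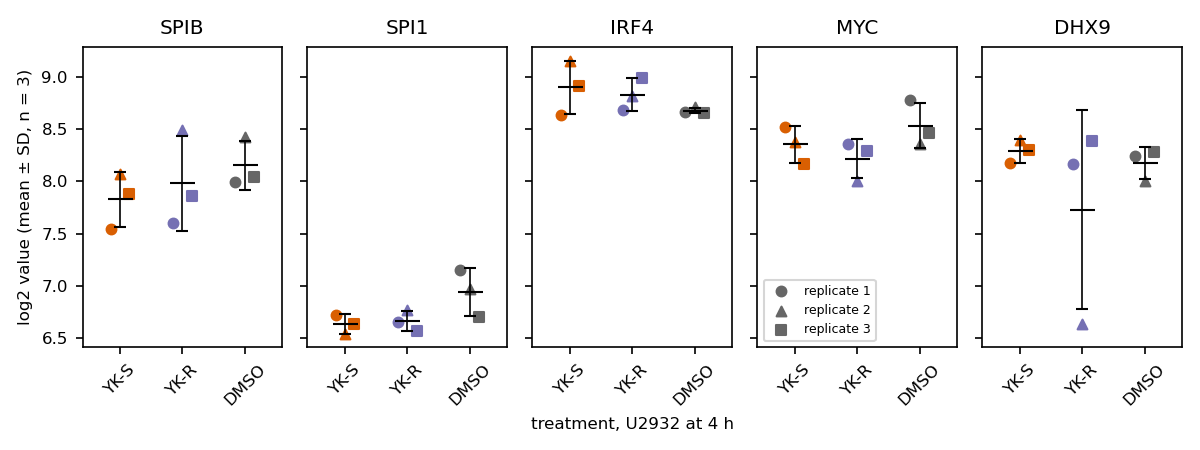
Log2 values of SPIB, SPI1, IRF4, MYC and DHX9 on each U2932 array at 4 h with YK-S, YK-R and DMSO, with bars at the mean ± SD (n = 3). The forms overlap in every panel, and DHX9 on YK-R replicate 2 lies at 6.64, far below the other 8 arrays.

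The 32 lists of genes by function, with 4 lists of cell type markers, held 1067 symbols, of which 886 passed the filter. None of these genes was called. Of the 32 medians 20 kept their sign without YK-R replicate 2, and 3 exceeded 0.1 log2 in size with all arrays: those of the mitosis genes (0.21), the NRF2 targets (0.16) and the cholesterol and fatty acid genes (−0.13), which were 0.09, 0.06 and −0.05 without that array. A different list, the heat shock chaperones, was the one past 0.1 without it (0.12). Of the 126 genes with the smallest p of each list, 100 had a difference that shrank by more than 1.5 times without YK-R replicate 2, and 3 changed sign. Counts below are read against the 48.7% of all features with a difference above 0. Many of those features lay near background. Over the 8779 features above background on all 18 arrays the median difference was 0.066. At an unadjusted p under 0.05 by limma, 573 of them were higher and 267 lower with YK-S. For lists of well measured genes, medians near 0.066 are thus like those of such features in general.

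ETS factors lay on both sides, with 11 of 24 measured members above 0 and a median of −0.03. ELK4, a partner of serum response factor, had the smallest p of the family, at 7.02, 6.87 and 6.90 with YK-S against 6.86, 6.45 and 6.55 with YK-R, a difference of 0.31 (adjusted p = 0.447 by limma). ETV6, a repressor of the family, differed by 0.28, and ETV5 by −0.23. Among DHX9, the FET proteins and the IRF partners of SPIB, 5 of 9 were above 0 (median 0.07). EWSR1, the FET protein fused in Ewing sarcoma, was at 10.05, 10.16 and 10.13 against 10.14, 11.13 and 10.22, and its difference of −0.38 was −0.07 without YK-R replicate 2.

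The lists of B cell identity, surface and NF-kB genes gave no common direction, whereas the short list of B cell markers did. All 6 measured B cell markers, CD79A among them, were below 0 (median −0.12). Without YK-R replicate 2, 1 of the 6 was above 0 (−0.06). With the signal table's names on the value table's values the median was 0.07. Of the identity factors 6 of 15 were above 0 (median −0.02), of the receptor and surface genes 12 of 24 (0.01), and of the NF-kB genes 11 of 26 (−0.06). CD79A, a chain of the B cell receptor complex, was at 11.19, 11.17 and 11.22 with YK-S and at 11.44, 12.26 and 11.35 with YK-R, a difference of −0.49 with groups that did not overlap. NFKBIE, an inhibitor of NF-kB, was at 9.58, 9.76 and 9.84 against 10.08, 10.76 and 9.90, a difference of −0.52. Without YK-R replicate 2 these differences were −0.20 and −0.26.

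Plasma cell genes had 10 of 13 members above 0 (median 0.09), led in p by TNFRSF17, the receptor BCMA, at 0.36, and PRDM1, the master regulator BLIMP1, at 0.50. PRDM1 was at 8.02, 7.90 and 7.74 with YK-S against 7.90, 6.58 and 7.69 with YK-R, so 1 of the YK-R arrays lay among those with YK-S. Without YK-R replicate 2, the array at 6.58, the difference of PRDM1 was 0.09 and that of TNFRSF17 was 0.12. HLA class II genes had 7 of 13 above 0 (0.06), with HLA-DRA at 0.39 and HLA-DMA at −0.45. Without YK-R replicate 2 HLA-DRA was at 0.17 and HLA-DMA at −0.28. HLA class I genes had 9 of 16 above 0 (0.01), and the list of chemokines, cytokines and homing receptors 14 of 22 (0.07). Without YK-R replicate 2 the latter list had 11 of 22 above 0 and a median of 0.0070. PIM1, a STAT3-driven kinase, and STAT3 itself, which that list also holds, were both at 0.59 with all 6 arrays. A difference in the STAT3 pathway was not tested.

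Mitosis and spindle genes had the largest median, 0.21 log2, with 28 of 38 measured members above 0. At an unadjusted p under 0.05, 8 were higher and 2 lower with YK-S, where 5.18% and 5.72% of all features were. The 3 YK-S arrays all lay above the YK-R arrays for 1 gene and all below for 3, against 4.97% and 4.76% of all features. CCNA2, cyclin A, was at 9.38, 9.89 and 10 with YK-S and at 9.16, 8.78 and 9.64 with YK-R, a difference of 0.57 (0.16 to 0.98). Without YK-R replicate 2 the difference of CCNA2 was 0.36. BUB1, a checkpoint kinase, was at 6.92, 7.34 and 7.35 against 7.0, 6.63 and 6.90, and CDK1 at 9.10, 9.35 and 9.41 against 8.91, 8.43 and 9.26. PRC1, a protein of the spindle midzone, was the one member whose YK-S arrays all lay above, at 9.62, 9.65 and 9.72 against 9.29, 9.39 and 9.62.

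The level of the whole mitosis list, as the median of its members on an array, was 8.02, 8.09 and 8.22 with YK-S and 7.90, 8.00 and 8.10 with YK-R, which overlap. The median difference was 0.09 without YK-R replicate 2, 0.26 between the dim arrays and 0.01 between the bright ones. With the signal table's names it was −0.20 on the value table's values and −0.29 on the signals. At 8 h it was 0.13, and in TMD8 at 4 h 0.05.

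Replication and chromatin genes were less shifted. DNA replication genes had 26 of 40 above 0 (0.05), with the polymerase epsilon subunit POLE2 at 0.65, or 0.18 without YK-R replicate 2, where it was at 6.63 against 7.96 and 8.07 on the other YK-R arrays. Tubulin genes had 12 of 18 above 0 (0.08) and replication-dependent histone genes 13 of 21 (0.02). Chromatin modifiers had 11 of 15 above 0 (0.07), while EZH2, the methyltransferase that silences genes through histone H3, was lower with YK-S on every array, at 8.39, 8.53 and 8.33 against 8.62, 9.21 and 8.69. Its difference was −0.42 (−0.69 to −0.16, unadjusted p = 0.0037, adjusted p = 0.447 by limma). YK-R replicate 2, at 9.21, was the highest array of EZH2.

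Apoptosis and p53 genes were split. The p53 targets had 9 of 21 above 0 (−0.0070) and the BCL2 family 10 of 19 (0.06). PMAIP1, which encodes the killer protein NOXA and is on both lists, was at 11.50, 11.31 and 11.41 with YK-S and at 11.81, 12.43 and 11.64 with YK-R, a difference of −0.55 (−0.94 to −0.16), or −0.32 without YK-R replicate 2. CDKN1A, the cell cycle inhibitor p21, was at 9.97, 9.90 and 9.94 against 9.73, 9.27 and 9.79, in the opposite direction. BCL2, a protein that keeps lymphoma cells alive, differed by 0.48 (−0.06 to 1.02), or by 0.17 without YK-R replicate 2.

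Genes of RNA and protein synthesis stayed near 0 as groups. The MYC network had 5 of 10 above 0 (−0.01), ribosome biogenesis factors 18 of 27 (0.08), and cytosolic ribosomal proteins 21 of 41 (0.02). RPL3 was at 12.33, 12.47 and 12.33 with YK-S against 12.07, 11.42 and 12.07 with YK-R, while RPL35 was at 11.71, 11.56 and 11.59 against 12.16, 12.65 and 11.85, so 2 proteins of the large ribosomal subunit lay in opposite directions. C/D box snoRNAs, which guide methylation of ribosomal RNA, had 74 of 119 above 0 (0.05), H/ACA box snoRNAs, which guide pseudouridylation, 47 of 82 (0.05), and the non-coding snoRNA host genes 9 of 18 (−0.0092). SNORA24 had the smallest p of the H/ACA group, at 8.30, 8.51 and 8.30 against 8.05, 7.41 and 8.13.

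Spliceosome genes had 18 of 36 above 0 (median 0.0025), from −1.06 for SF3A2 to 0.63 for TRA2A. The difference of SF3A2 was −0.24 without YK-R replicate 2. U2AF2, which recognises the polypyrimidine tract before the 3′ splice site, was at 10.49, 10.59 and 10.55 with YK-S and at 10.80, 10.94 and 10.71 with YK-R, a difference of −0.28 (−0.47 to −0.08). Its partner U2AF1 differed by 0.49, in the opposite direction, or by 0.18 without YK-R replicate 2.

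The lists of stress genes were of mixed direction. Heat shock chaperones had 11 of 18 above 0 (0.01), ER stress genes 11 of 16 (0.07), amino acid and integrated stress response genes 14 of 27 (0.01), immediate early genes 11 of 25 (−0.04), and interferon-stimulated genes 18 of 27 (0.02). Without YK-R replicate 2 the heat shock chaperones had 12 of 18 above 0 and a median of 0.12, and the ER stress genes had 4 of 16 above 0 and a median of −0.06. HSP90B1, the ER chaperone GRP94, was at 10.80, 10.69 and 10.68 with YK-S and at 11.08, 11.72 and 10.90 with YK-R, a difference of −0.51. PSPH, an enzyme of serine synthesis, was at 7.31, 7.43 and 7.41 against 7.17, 6.43 and 7.06, a difference of 0.50. NRF2 target genes had 14 of 16 above 0 and a median of 0.16, which was 0.06 without YK-R replicate 2 and −0.02 with the signal table's own names, and SRXN1, which repairs peroxiredoxins, was at 7.40, 7.48 and 7.42 against 7.28, 6.46 and 7.34.

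Among metabolic genes, those of cholesterol and fatty acid synthesis had 7 of 24 above 0 and the lowest median, −0.13. FDPS, an enzyme of the mevalonate pathway, was at 8.13, 8.20 and 8.45 with YK-S and at 8.49, 8.92 and 8.58 with YK-R, a difference of −0.40, and the fatty acid synthase FASN differed by −0.47. The median of the list was −0.05 without YK-R replicate 2 and −0.07 with the signal table's own names, and the level of the list on single arrays (8.51, 8.51 and 8.49 against 8.50, 8.31 and 8.56) did not separate the forms. Respiratory chain genes had 24 of 36 above 0 (0.06), and glycolysis and hypoxia genes 19 of 29 (0.02).

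**Figure D5:**
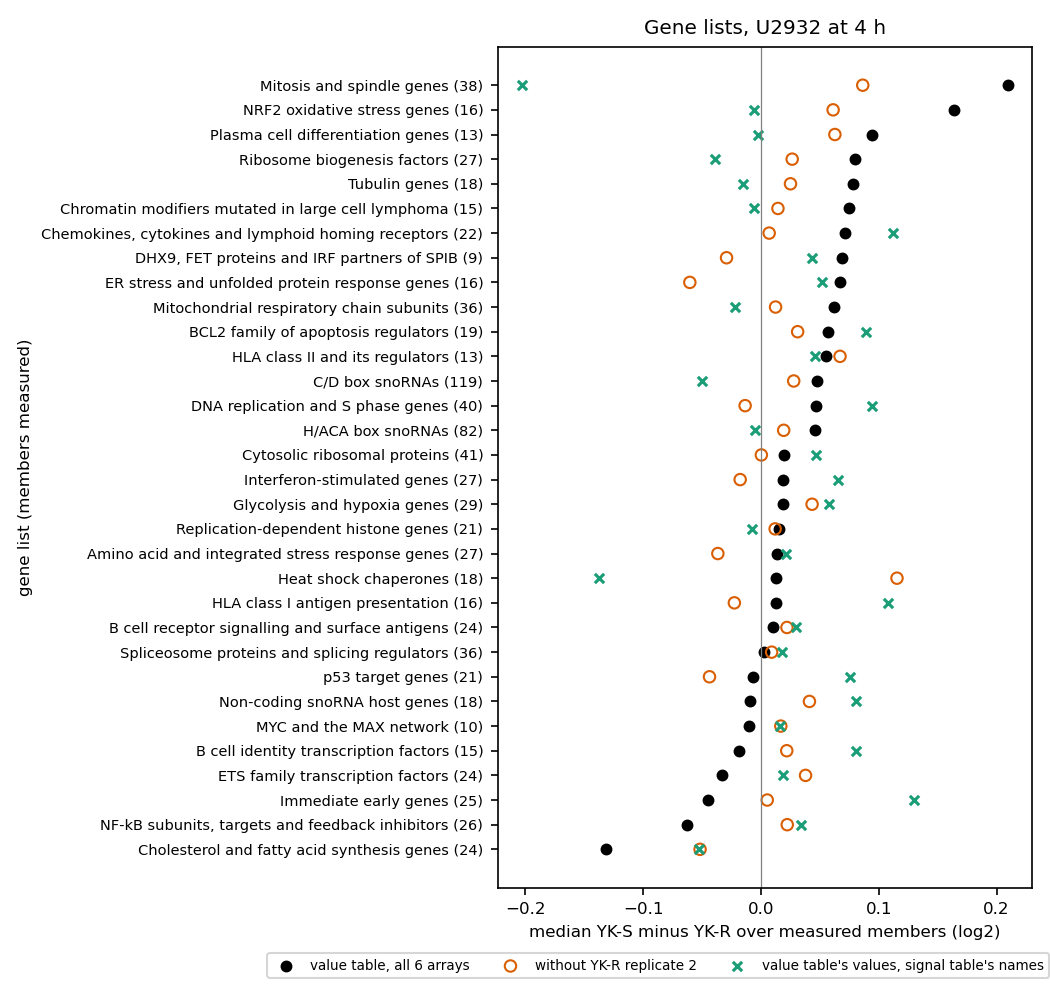
Median difference, YK-S minus YK-R in U2932 at 4 h on the log2 scale, for 32 gene lists with the number of members measured in brackets, with all 6 arrays (filled), without YK-R replicate 2 (open) and with the signal table's names on the value table's values (crosses). The mitosis list runs from 0.21 through 0.09 to −0.20.

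Each form was also compared with DMSO at 4 h in the same fit. YK-S differed from DMSO at 0 of 23814 features (0%, 2075 at an unadjusted p under 0.05) and YK-R at 265 (1.11%), 81 higher and 184 lower. These counts depended on the setting. With array weights the order turned, to 1101 for YK-S (4.62%) and 0 for YK-R (0%). With the signal table's names, YK-S had 0 calls on the value table's values and 0 on the signals, and YK-R had 2 (0.0084%) and 227 (0.953%). Without YK-R replicate 2 alone they were 333 for YK-S (1.4%) and 504 for YK-R (2.12%). Leaving out YK-R replicate 2 with the 2 U2932 arrays at 8 h that also stood apart, a choice made after the correlations were seen, gave 1204 called features for YK-S (5.06%) and 1509 for YK-R (6.34%), while the forms themselves still differed at 0. These comparisons share their DMSO arrays, so a feature called in one and not in the other does not show that the forms differ.

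At 8 h the forms differed at 0 of 23814 features, with 559 at an unadjusted p under 0.05. The change of the difference from 4 h to 8 h, tested as an interaction, was called at 0 features, with 1307 at an unadjusted p under 0.05. In TMD8 cells at 4 h, fitted apart because the lines were normalized separately, the forms differed at 0 of 30280 features, with 635 at an unadjusted p under 0.05 where chance gives 1514.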

How the data were processed

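Per the labels' protocols, RNA was extracted with an RNeasy kit and biotin-labelled cRNA was made with a TotalPrep kit, and GenomeStudio is named in the submitters' processing notes. The deposited log2 values were the main measure. The labels state neither log base nor normalization. The 18 U2932 columns share 1 distribution, which matched the log2 of the mean of the sorted signals within 0.0043, so the deposited values are quantile normalized signals with no background subtracted, and differences of dim probes are understated. The deposited signal table holds intensity on a linear scale.

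Of 47231 probes 30113 had 1 gene symbol, 8 several and 17110 none, and 30074 were matched to RefSeq by gene ID. The most frequent log2 value (6.33) was taken as background, with the limit at the upper 5% point of a normal curve around it (6.45). Probes above the limit on at least 3 of 18 arrays were kept (28988), and the brightest stood for a gene, giving 23814 features (14140 named genes and 9674 unnamed probes). A mean per group over 6 groups of 3 arrays was fitted with 12 residual degrees of freedom (R 4.3.3, limma 3.58.1), tested two-sided and adjusted by Benjamini-Hochberg over all features. The test was checked on simulated data with the same spread on all 18 arrays, where 15 of 207 calls were false. The simulation held no array that stands apart, so the check does not cover that feature of the data. Number of arrays limits the precision. One pair of compounds was compared. Members, gene lists and tests were chosen with earlier results of these data known. Named genes were the called ones, filled to 12 each way by the smallest unadjusted p among genes with non-overlapping groups, plus up to 4 members of each list by p, and SPIB, SPI1, IRF4, MYC and DHX9. Alternatives covered array names, normalization, filters, brightness, weights and single arrays.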

Additional observations from a re-analysis of the deposited data

How the results depend on the processing

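No feature was called between the forms under any of the alternatives but 1, the fit without YK-R replicate 1. No paired analysis was possible because the labels carry no replicate numbers and the numbers used follow the order of the samples. Leaving out each of the 6 arrays in turn gave 0 to 124 called features between the forms and 0 to 1 for 8 h minus 4 h, both highs without YK-R replicate 1. At an unadjusted p under 0.05 there were 2606, 1349 and 1631 features without YK-S replicates 1, 2 and 3, and 5128, 962 and 6599 without YK-R replicates 1, 2 and 3. List medians then ranged from −0.10 to 0.022 for the NF-kB genes, from −0.058 to 0.034 for the HLA class I genes, from 0.086 to 0.33 for the mitosis genes and from −0.25 to −0.052 for the cholesterol genes, and the differences of single genes from −0.34 to 0.10 for SPIB, from −0.075 to 0.023 for SPI1 and from −0.056 to 0.20 for IRF4. With the signal table's own names and signals, 27 of the 29 single genes had the opposite sign: GOLM1 (−0.60), TPM1 (−0.999), PPP2R5C (−0.53), IL27RA (−0.58), ATOH7 (−0.62), STX7 (−0.55), ZNF18 (−0.47), PI4KAP1 (−0.56), ZNF804A (−0.22), HABP4 (−0.45), H3C10 (−0.54), FAM83D (−0.42), PPP2R5B (0.54), TMEM202 (0.82), SLC35G5 (0.24), CELF6 (0.71), ZNF385D (0.77), TMED8 (0.59), OR2A25 (0.36), FABP7 (0.64), UBXN10 (0.46), PWWP2B (0.31), POFUT4 (0.80), USP6NL (0.22), SPI1 (0.43), IRF4 (−0.16) and DHX9 (−0.078). The list medians that moved by more than the spread between arrays were those of ETS factors (0.071), NF-kB genes (0.038), HLA class I genes (0.20), mitosis genes (−0.29), tubulin genes (−0.036), ribosome biogenesis factors (−0.042), C/D box snoRNAs (−0.11), immediate early genes (0.17) and NRF2 genes (−0.016). With those names on the value table's values the same 27 genes had the opposite sign: GOLM1 (−0.25), TPM1 (−0.42), PPP2R5C (−0.22), IL27RA (−0.21), ATOH7 (−0.22), STX7 (−0.28), ZNF18 (−0.18), PI4KAP1 (−0.21), ZNF804A (−0.074), HABP4 (−0.20), H3C10 (−0.20), FAM83D (−0.29), PPP2R5B (0.22), TMEM202 (0.30), SLC35G5 (0.088), CELF6 (0.26), ZNF385D (0.28), TMED8 (0.22), OR2A25 (0.14), FABP7 (0.26), UBXN10 (0.21), PWWP2B (0.11), POFUT4 (0.29), USP6NL (0.16), SPI1 (0.19), IRF4 (−0.14) and DHX9 (−0.062). The medians that moved were those of NF-kB genes (0.034), HLA class I genes (0.11), mitosis genes (−0.20), tubulin genes (−0.015), C/D box snoRNAs (−0.050), H/ACA box snoRNAs (−0.0049) and immediate early genes (0.13). The exchange of arrays between the groups fixes most of these signs. Scaling the signals to equal medians turned USP6NL (0.014), SPIB (0.15) and SPI1 (0.030), and moved the medians of ETS factors (0.065), B cell identity factors (0.25), B cell surface genes (0.20), NF-kB genes (0.10), plasma cell genes (0.39), HLA class II genes (0.26), HLA class I genes (0.26), replication genes (0.35), ribosome biogenesis factors (0.28), snoRNA host genes (0.24), splicing genes (0.29), ER stress genes (0.31), integrated stress genes (0.29), immediate early genes (0.061), cholesterol genes (0.11), glycolysis genes (0.34), NRF2 genes (0.35), ribosomal proteins (0.26) and respiratory chain genes (0.41); the median of all features moved from −0.0056 to 0.031, and the cause of the larger list shifts was not tested. The signal table's normalization under the value table's names moved C/D box snoRNAs (0.092), H/ACA box snoRNAs (0.12) and immediate early genes (−0.15), and requiring a signal above background on all 18 arrays, with 8779 features tested, moved ETS factors (0.081), C/D box snoRNAs (0.13), H/ACA box snoRNAs (0.12) and immediate early genes (−0.17). Bright arrays alone turned SPI1 (0.07) and IRF4 (−0.043) and moved mitosis genes (0.0085), C/D box snoRNAs (−0.0063) and cholesterol genes (−0.030), dim arrays alone moved HLA class I genes (−0.045), and the mean of a gene's probes moved HLA class I genes (0.053). Array weights, which did not fully converge and gave YK-R replicate 2 the lowest weight (0.072), turned SPIB (0.0016) and SPI1 (0.016) and moved NF-kB genes (−0.00021), mitosis genes (0.098) and immediate early genes (0.066). Without the 3 arrays that stood apart, chosen after the data were seen, SPIB (0.10) and SPI1 (0.023) turned and the medians of NF-kB genes (0.022) and mitosis genes (0.086) moved. The cause of these shifts was not tested. Besides those with single arrays left out, counts at an unadjusted p under 0.05 that differed from the main 2596 by more than 1.5 times were 1176 and 1105 with the signal table's names, 229 with median scaling, 407 with the 6 arrays alone, 333 with array weights, 770 with dim and 1114 with bright arrays alone, 840 of the 8779 features above background on all 18 arrays, and 1448 without the 3 arrays. Array number and the dim arrays, with 25% to 41.4% of probes above their own limit against 48.3% and 48.5% on the bright ones, limit what could be seen. The 41.4% was that of YK-R replicate 2.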
